A study of Danio rerio with 2 samples.

Results

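The acidic chitinases of the zebrafish are the chia genes, and every row of the gene table that carries a symbol between chia.1 and chia.6 was taken as a member. This gave 6 identifiers of 25432 genes: chia.1 (ENSDARG00000100635), chia.2 (ENSDARG00000099185), chia.3 (ENSDARG00000009612), chia.4 (ENSDARG00000008541), and the symbol chia.6 used for both ENSDARG00000093193 and ENSDARG00000116259. No row is named chia.5, but a current gene name table gives that name to ENSDARG00000116259, which is called here by its identifier. The adult intestine was profiled by droplet single-cell RNA sequencing in 1 nod2-/- library and 1 WT library (strain TL). Each library pooled the dissociated intestines of 5 fish at 6 months of age, 2 males and 3 females, and the 2 genotypes were cohoused offspring of an incross. The nod2 allele is a short deletion that shifts the reading frame in every cell of the fish, so it marks no cell type. With 1 library for each genotype there is no replicate, no p-value was computed, and a difference between genotypes cannot be told apart from a difference between these pools or preparations.

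Chitinases cut chitin, the polymer of N-acetylglucosamine found in fungal walls, in the shells of crustaceans and insects, and in the gut lining of some animals. Acidic chitinases are secreted enzymes of the glycoside hydrolase class that work at low pH, and in mice the single homologous gene is made in stomach and airway and is induced by the type 2 cytokines. Zebrafish carry several copies in tandem. In the current zebrafish annotation chia.1 and chia.2 lie side by side between cntn2 and ovgp1, with chia.3 on the other side of ovgp1, while chia.4, chia.5 and chia.6 form a separate run between nfascb and pm20d1.2. The gene ovgp1, another member of the enzyme class that lies within the first run, had 0 UMIs in both libraries.

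The nod2-/- library held 5599 cells with 22244173 unique molecular identifiers (UMIs, each marking 1 captured transcript) and a median of 1940 per cell, and the WT library held 5891 cells with 34052268 UMIs and a median of 3400. Levels are given as CPM, the UMIs of a gene per 1000000 UMIs of a class or library. The targeted gene had 75 UMIs (3.37 CPM) in the nod2-/- library and 139 UMIs (4.08 CPM) in the WT library, a check that cannot see the frameshift, since counts of transcript ends do not read the deletion. Only 10 cell barcodes occurred in both libraries. Cells were grouped into 27 clusters without use of the chitinases, and clusters were named from marker genes. Ranges in brackets are exact 95% intervals, which cover counting error only. In pooled UMIs of a class, fewer expressing cells and less RNA per cell cannot be told apart, so shares of cells are given beside the main levels.

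The members divided into abundant and scarce genes along the same line as their 2 genomic runs. Of the first run, chia.1 had 98131 UMIs in nod2-/- cells and 141144 in WT cells, chia.2 had 89660 and 108521, and chia.3 had 218422 and 306750. Together these made up 1.83% of all UMIs of the nod2-/- library and 1.63% of the WT library, and chia.3 alone ranked 9th and 11th among all genes. Of the second run, chia.4 had 110 UMIs in nod2-/- cells and 506 in WT cells, ENSDARG00000116259 had 309 and 671, and chia.6 had 59 and 90. Each UMI counts 1 transcript end whatever the length of the gene, so these numbers can be set side by side. Paralogs can share reads. The likeness of their sequences was not measured, and how the reads were divided between them was not tested.

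Enterocytes, the absorptive cells that carry the lipid and retinol binding proteins fabp2, apoa1a and rbp2a, were the main source of the first run. They numbered 2314 in the nod2-/- library and 2757 in the WT library, and between 9 and 13 of the 13 enterocyte markers in the files were raised in each of their 5 clusters. Of all chia.3 UMIs, 86.1% lay in nod2-/- enterocytes and 83.4% in WT enterocytes, and the shares of chia.1 (85.7% and 82.3%) and chia.2 (86.7% and 83.6%) were alike. These 3 genes together held 2.88% of all nod2-/- enterocyte UMIs and 2.53% of those in WT. Among all genes of the enterocytes, chia.3 ranked 7th in nod2-/- and 8th in WT, chia.1 ranked 16th and 17th, and chia.2 ranked 17th and 21st.

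The level of chia.3 in enterocytes was 15481 CPM (15411 to 15551) in nod2-/- and 13974 CPM (13920 to 14028) in WT. That of chia.1 was 6926 CPM (6879 to 6973) in nod2-/- and 6344 CPM (6308 to 6381) in WT, and that of chia.2 was 6396 CPM (6351 to 6441) and 4956 CPM (4924 to 4989). In both libraries, then, chia.3 was the highest paralog and chia.2 the lowest. The highest enterocyte in the nod2-/- library held 882 chia.3 UMIs, and the highest in the WT library held 826.

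**Figure D1:**
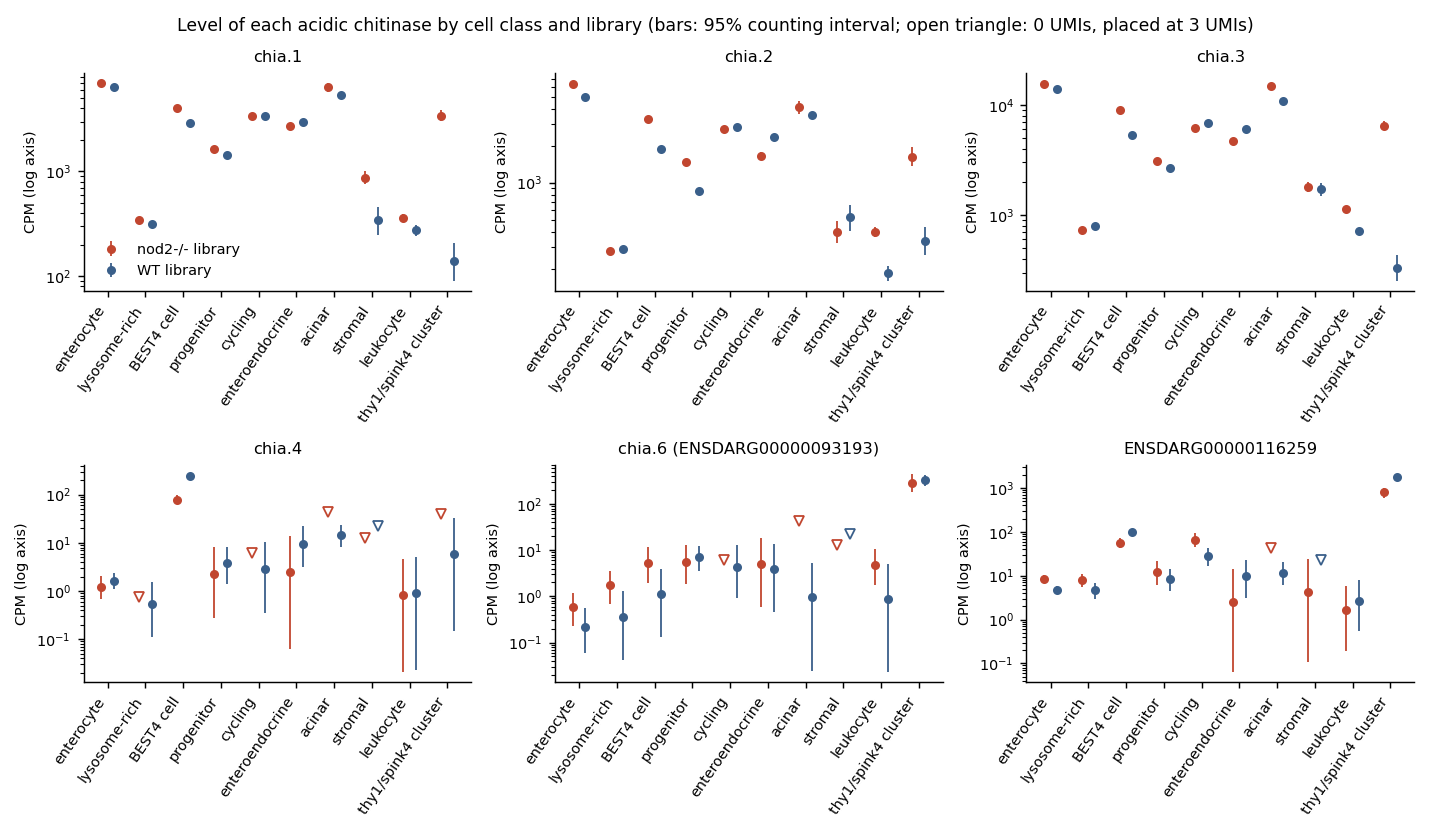
Level (CPM, log axis) of each of the 6 members in 10 cell groups, nod2-/- library in red left of the WT library in blue, with 95% counting intervals and open triangles at the level of 3 UMIs where a group had 0. The upper genes are highest in enterocytes (chia.3 at 15481 CPM in nod2-/- and 13974 CPM in WT), chia.4 is highest in BEST4 cells (79.2 and 239 CPM), and chia.6 and ENSDARG00000116259 are highest in the thy1/spink4 cluster (289 and 326 CPM, and 789 and 1811 CPM).

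Outside enterocytes the first run was found in every class. The level of chia.3 was 8393 CPM in nod2-/- and 5911 CPM in WT in the unnamed cluster 9, and 6135 and 6798 CPM in cycling cells. Enteroendocrine cells had 4695 and 5986 CPM of it, and progenitors 3090 and 2663 CPM. The share of RNA that moves between droplets was not measured here, so leukocytes are given as a class for comparison. In lysosome-rich enterocytes, which take up whole proteins and carry cubn and dab2, chia.3 had 736 CPM in nod2-/- and 802 CPM in WT. In leukocytes it had 1137 CPM in nod2-/- and 709 CPM in WT, and 45.0% of nod2-/- and 43.2% of WT leukocytes held a chia.3 UMI. Median depth was 917 UMIs per cell in nod2-/- and 1117 in WT leukocytes, against 3808 and 5357 in enterocytes. Counted per cell, lysosome-rich cells held a mean of 4.02 chia.3 UMIs in nod2-/- and 7.89 in WT, against 1.26 and 0.973 in leukocytes, although the median lysosome-rich cell held 0 in nod2-/- and 1 in WT. The lysosome-rich class thus lay above leukocytes in UMIs per cell in both libraries, and in CPM in WT alone. Its cells were also deeper, with medians in its clusters of 3241.5 and 2942 UMIs in nod2-/- and 6288 and 4652.5 in WT. Before thinning, 32.5% of nod2-/- and 31.8% of WT lysosome-rich cells held none of chia.1, chia.2 and chia.3, against 37.8% and 39.2% of leukocytes. With each cell thinned to 1000 UMIs the order of this share turned round, to 65.5% and 70.1% against 46.5% and 52.2%. Thinning kept 638 nod2-/- and 531 WT lysosome-rich cells, and 492 and 483 leukocytes. The share with all 3 genes did not turn round, at 5.96% and 4.90% in thinned lysosome-rich cells against 4.67% and 1.86% in leukocytes.

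Among the UMIs of these 3 paralogs, chia.3 took the largest share in each of these classes, and its share was higher in leukocytes than in enterocytes. In leukocytes chia.3 made 60.0% of the UMIs of all 3 in nod2-/- and 60.9% in WT, against 53.7% and 55.3% in enterocytes, and in lysosome-rich enterocytes it made 54.2% and 57.2%. The share of chia.1 was 19.0% in nod2-/- and 23.4% in WT leukocytes, against 24.0% and 25.1% in enterocytes, and that of chia.2 was 21.04% in nod2-/- and 15.7% in WT leukocytes, against 22.2% and 19.6% in enterocytes. Pancreatic acinar cells had 14843 CPM of chia.3 in nod2-/- (41 cells) and 10870 CPM in WT (261 cells), close to the enterocytes. For nod2-/- the intervals of chia.3 and of chia.1 overlapped between acinar cells and enterocytes. Those acinar cells also held 87484 CPM of the summed enterocyte markers in nod2-/- and 55086 CPM in WT, where enterocytes themselves had 93948 and 72972 CPM. The 10 acinar markers summed to only 8889 CPM in the nod2-/- acinar cells, against 50436 CPM in WT, so the name has less support in nod2-/-. The part of carried-over enterocyte RNA in the acinar level was not tested.

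Each enterocyte usually held all 3 genes. A UMI of chia.3 was found in 93.0% of nod2-/- and 96.8% of WT enterocytes, of chia.2 in 92.2% and 93.5%, and of chia.1 in 82.1% and 89.0%. Every cell was then thinned to 1000 UMIs, which kept 1914 nod2-/- and 2355 WT enterocytes. The shares became 88.6% and 91.3% for chia.3, 94.8% and 90.2% for chia.2, and 80.3% and 83.0% for chia.1. The difference in the share of chia.2 ran the other way among the cells kept, with nod2-/- the higher. Before their UMIs were thinned, chia.2 was in 97.5% of the kept nod2-/- cells and 96.6% of the kept WT cells. That gap was smaller than the one after thinning. The parts of cell removal and of depth in this turn were not tested.

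All 3 genes were detected together in 77.5% of nod2-/- and 84.9% of WT enterocytes, and at equal depth in 74.7% and 75.2%. Before thinning the joint share was 4.75% in nod2-/- and 2.69% in WT leukocytes, and 10.4% and 13.4% in lysosome-rich enterocytes. At equal depth it was 4.67% and 1.86% in leukocytes, and 5.96% and 4.90% in lysosome-rich enterocytes. Enterocytes without any of these 3 genes were rare before thinning, at 1.64% in nod2-/- and 0.834% in WT. At equal depth the order of the libraries turned round, with 0.993% in nod2-/- and 1.53% in WT.

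Within enterocytes the paralogs were not used in fixed proportion. Among the 5 enterocyte clusters, chia.3 was highest in the cluster led by apoa4a and clca1 (23615 CPM in nod2-/- and 18421 CPM in WT) and in the low-UMI cluster led by plac8.1 (20482 and 22127 CPM). It had 16770 CPM in nod2-/- and 14644 CPM in WT in the cluster led by tcnba, a cobalamin binding protein, and slc13a1, a sulfate carrier. In the cluster led by scarb1 and slc34a2a, a lipoprotein receptor and a phosphate carrier, it had 6388 and 5674 CPM.

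The cluster led by slc6a19b, a neutral amino acid carrier, and by the lactase gene lct stood apart. It had only 2109 CPM of chia.3 in nod2-/- and 2940 CPM in WT, and only 992 and 811 CPM of chia.1. Yet chia.2 was at its highest of the 5 clusters there, with 8591 CPM in nod2-/- and 6827 CPM in WT. In the other clusters chia.2 lay between 3891 and 6384 CPM in nod2-/- and between 2507 and 5240 CPM in WT. Per cell this cluster held a mean of 12.4 chia.3 UMIs in nod2-/- and 22.8 in WT, against 81.3 and 92.8 over all enterocytes.

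**Figure D2:**
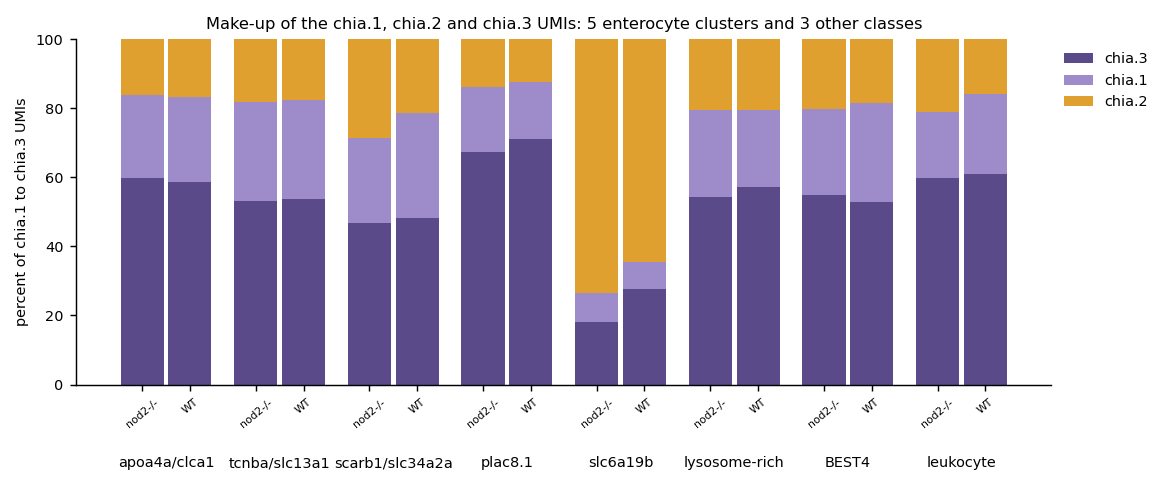
Percent of the summed chia.1, chia.2 and chia.3 UMIs that came from each gene, in 5 enterocyte clusters named by leading genes and in 3 other classes, nod2-/- library left of the WT library. The slc6a19b cluster draws 73.5% (nod2-/-) and 64.5% (WT) from chia.2, where the other enterocyte clusters draw 12.3 to 28.5%.

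Of the UMIs of the 3 genes in the slc6a19b cluster, 73.5% came from chia.2 in nod2-/- and 64.5% in WT, while the other enterocyte clusters drew 12.3 to 28.5% from it in either library. The same held cell by cell among enterocytes with at least 20 UMIs of these genes. In the slc6a19b cluster the median chia.2 share of a cell was 83.6% in nod2-/- (312 cells) and 72.3% in WT (211 cells), and chia.2 was the highest of the 3 in 93.6% and 85.3% of these cells. In the apoa4a cluster the median chia.2 share was 16.1% in nod2-/- and 16.9% in WT, and chia.3 was the highest of the 3 in 95.4% and 94.9% of its cells. The average of the slc6a19b cluster was thus shared by most of its cells and not set by a few. The labels do not record where along the gut a cell lay, so the part of gut position was not tested.

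**Figure D3:**
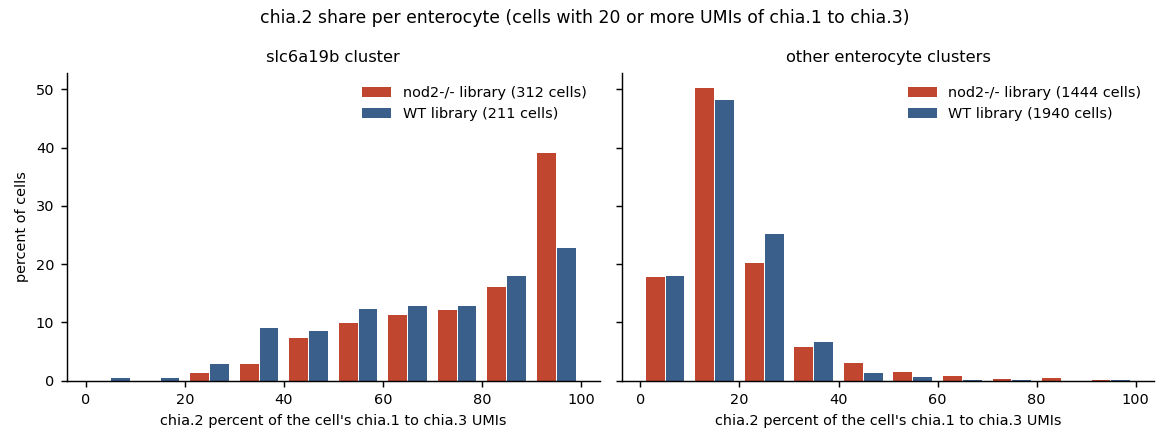
Distribution over cells of the chia.2 share (percent of a cell's chia.1, chia.2 and chia.3 UMIs) for enterocytes with 20 or more such UMIs, nod2-/- in red and WT in blue. The slc6a19b cluster (312 nod2-/- and 211 WT cells) has medians of 83.6 and 72.3%, and the other clusters lie mostly at low shares.

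Across single enterocytes of a library, chia.1 and chia.3 moved closely together and chia.2 followed chia.3 less closely. The Pearson correlation of log-normalized values for chia.1 and chia.3 was 0.71 over 2314 nod2-/- cells and 0.65 over 2757 WT cells, and at 1000 UMIs per cell it was 0.74 over 1914 nod2-/- cells and 0.68 over 2355 WT cells. For chia.2 and chia.3 it was 0.18 in nod2-/- and 0.32 in WT, and 0.06 and 0.29 after thinning. For chia.1 and chia.2 it was 0.35 and 0.40, and 0.12 and 0.28 after thinning. In the plac8.1 cluster chia.1 and chia.3 were not the closest pair, with 0.21 in nod2-/- and 0.29 in WT, but 0.51 and 0.43 for chia.1 and chia.2. In each other cluster chia.1 and chia.3 stayed the closest pair, while the other pairs often changed places. In the apoa4a cluster chia.2 and chia.3 had 0.32 in nod2-/- and 0.49 in WT, above 0.15 and 0.34 for chia.1 and chia.2. In the slc6a19b cluster chia.2 and chia.3 had 0.31 and 0.44, beside 0.34 and 0.30 for chia.1 and chia.2. Within the 200 to 2500 UMI and mitochondrial limits worded in the study's methods, the correlation of chia.1 and chia.3 over all enterocytes was 0.46 in nod2-/- and 0.42 in WT. These cells share 1 library each and differ in depth, so the values are descriptions.

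Against the 5187 genes in nod2-/- and the 6434 in WT that were detected in at least 5% of enterocytes, chia.3 was the closest partner of chia.1 in both libraries. The closest to chia.3 in nod2-/- was chia.1, followed by apoa4b.2 (0.60), apoea (0.59), apoa1a (0.56) and rbp2a (0.54). In WT the first 5 were rbp2a (0.70), apoa4b.2 (0.70), apoea (0.68), slc25a5 (0.66) and apoa1a (0.65), with chia.1 in place 6, and chia.1 came first there after thinning. Of these, apoa4b.2, apoea and apoa1a encode apolipoproteins, rbp2a a retinol binding protein and slc25a5 a mitochondrial carrier of adenine nucleotides. For chia.2, rbp2a (0.45) came first in WT, while chia.3 held place 458 in nod2-/- and place 101 in WT.

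The levels of all 3 genes of the first run in enterocytes were higher in nod2-/- than in WT, by less than 1.3-fold. The log2 ratio of nod2-/- to WT was 0.37 (0.35 to 0.38) for chia.2, 0.15 (0.14 to 0.16) for chia.3 and 0.13 (0.11 to 0.14) for chia.1. Of these 3 genes, 0 reached a 2-fold difference. Of the 3842 genes with at least 20 CPM in enterocytes of a library, 1.95% were higher and 3.62% were lower in nod2-/- by at least 2-fold. The median gene had a ratio of -0.17. Relative to it chia.2 stood at 0.53, chia.3 at 0.31 and chia.1 at 0.29, and 8.80% of the genes lay above chia.2, 20.7% above chia.3 and 22.3% above chia.1.

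The ratios moved with the choice of cells and the scaling. An alternative kept only the cells inside the limits worded in the study's methods, 200 to 2500 UMIs and at most 25% mitochondrial UMIs. Then the ratio of chia.3 turned round to -0.48 and that of chia.1 was 0.04, while chia.2 kept its direction. These limits also change the mix of clusters, since the median cell of the apoa4a, tcnba and slc6a19b clusters exceeded 2500 UMIs in both libraries. The median was 1394 in nod2-/- and 2913 in WT in the scarb1 cluster, and 903.5 and 851.5 in the plac8.1 cluster. The part of this mix was not tested. Scaling by trimmed means (TMM) added 0.18 to all, giving 0.55 for chia.2, 0.33 for chia.3 and 0.31 for chia.1.

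By cluster, chia.2 was the one gene of the run with a positive ratio in all 5. Its ratios were 0.28 in the apoa4a cluster, 0.26 in the tcnba cluster, 0.63 in the scarb1 cluster, 0.15 in the plac8.1 cluster and 0.33 in the slc6a19b cluster. For chia.3 the ratio was positive in the apoa4a, tcnba and scarb1 clusters (0.36, 0.20 and 0.17) and negative in the plac8.1 cluster (-0.11) and the slc6a19b cluster (-0.48). That of chia.1 was -0.10 in the scarb1 cluster and 0.16 to 0.29 in the others. All these fall between the 5th and the 95th percentile of the genes of their cluster. The slc6a19b cluster held 451 nod2-/- and 308 WT cells, where the other clusters had more WT cells.

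**Figure D4:**
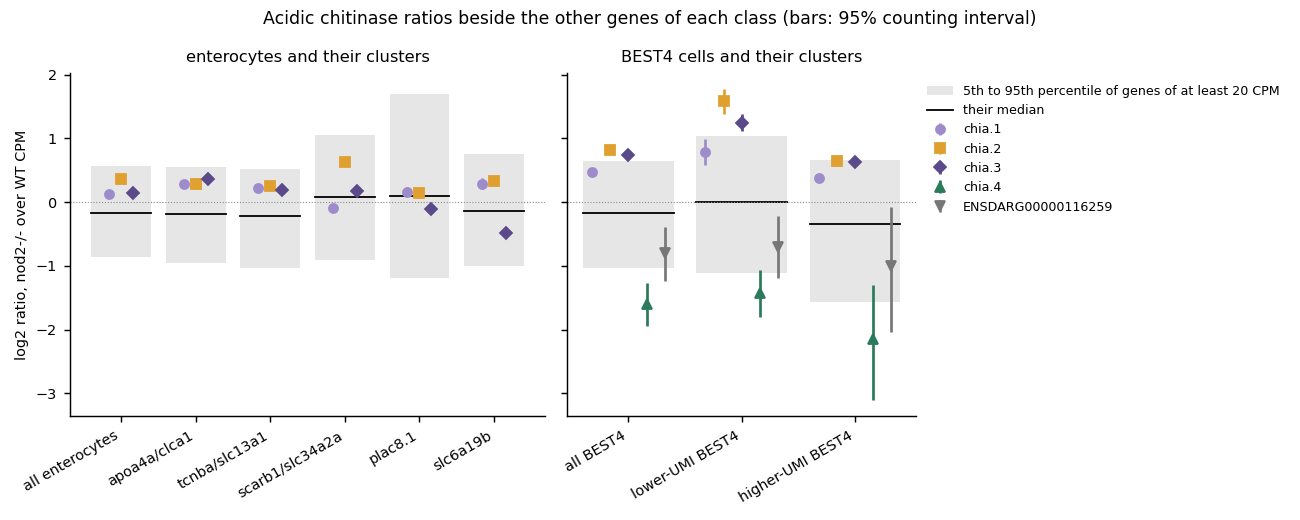
Log2 ratio of nod2-/- to WT CPM with 95% counting intervals, for members in enterocytes and their 5 clusters (left) and in BEST4 cells and their 2 clusters (right), over grey bands of the 5th to 95th percentile of genes with at least 20 CPM and their median. The first run lies inside the bands in enterocytes (0.13 to 0.37 over all enterocytes), and chia.4 lies below the band in each BEST4 group (-1.59 over all BEST4 cells).

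Ratios of the first run in other classes went in both directions. In leukocytes chia.2 had 399 CPM (491 UMIs) in nod2-/- and 183 CPM (205 UMIs) in WT, a ratio of 1.13 (0.89 to 1.37), with 4.8% of genes higher by at least 2-fold in nod2-/- leukocytes. The ratio was 0.68 for chia.3 and 0.40 for chia.1. The summed level of the 13 enterocyte markers was 7180 CPM in nod2-/- leukocytes and 3908 CPM in WT leukocytes, a ratio of 0.88 with no marker at 0. Their part in the chitinase ratio was not tested. In lysosome-rich enterocytes the ratio was -0.12 for chia.3, -0.04 for chia.2 and 0.13 for chia.1, while the enterocyte marker sum had a ratio of 0.14. In the unnamed cluster 22 (32 nod2-/- and 41 WT cells), chia.3 had 20 UMIs in nod2-/- and 441 in WT. Its ratio of -2.80 went with one of -2.11 for the marker sum. There chia.1, chia.2 and ENSDARG00000116259 were also lower by at least 2-fold, beside 17.2% of genes lower and 34.2% higher. Other small groups went the other way. In cluster 18 chia.1, chia.2 and chia.3 were higher by at least 2-fold, beside 5.95% of its genes, and in cluster 19 chia.3 was, beside 23.3%. In stromal cells chia.1 passed 2-fold too, with 204 UMIs in 174 nod2-/- cells and 45 UMIs in 75 WT cells. Endothelial cells had 88 chia.1 UMIs in 63 nod2-/- cells and 1 in 14 WT cells, and 222 and 4 UMIs of chia.3. Both genes passed 2-fold there, but the WT side is near the floor. For stromal and endothelial cells no share over all genes is given, so these calls have no scale.

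BEST4 cells are epithelial cells with the channels best4, otop2 and cftr, and they numbered 336 in nod2-/- and 414 in WT. There chia.3 had 9003 CPM in nod2-/- and 5377 CPM in WT, with ratios of 0.74 for chia.3, 0.82 for chia.2 and 0.47 for chia.1. The enterocyte marker sum in these cells was 50360 CPM in nod2-/- and 29226 CPM in WT, a ratio of 0.79, and its part in the chitinase ratios was not tested. Most of this came from the smaller BEST4 cluster (64 and 85 cells), which had 14923 CPM of chia.3 in nod2-/- and 9618 CPM in WT and a median of 9022 and 9396 UMIs per cell. In that cluster 20.3% of nod2-/- and 30.6% of WT cells were above the 95th percentile of the doublet score, against 2.94% and 1.82% in the larger cluster. The larger cluster (272 and 329 cells) had 2218 CPM of chia.3 in nod2-/- and 935 CPM in WT. There the ratios of chia.2 (1.58) and chia.3 (1.25) passed 2-fold, beside 5.33% of its genes higher by that much. Its enterocyte marker sum was 20579 CPM in nod2-/- and 11502 CPM in WT, which is less than 2-fold, and the part of that sum was not tested.

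Of the second run, chia.4 was found mainly in BEST4 cells. BEST4 cells held 81.8% of all chia.4 UMIs in the nod2-/- library and 85.8% in WT. The level was 79.2 CPM (90 UMIs) in nod2-/- BEST4 cells and 239 CPM (434 UMIs) in WT BEST4 cells. It was 149 and 383 CPM when cells were clustered with 30 principal components, and 141 and 403 CPM within the methods' limits on cells. In enterocytes it was 1.23 CPM (15 UMIs) in nod2-/- and 1.64 CPM (30 UMIs) in WT, and leukocytes had 1 UMI in each library. Those single UMIs are 0.909% of the chia.4 UMIs of the nod2-/- library and 0.198% of those of WT. Pancreatic acinar cells had 0 UMIs in nod2-/- and 14.5 CPM (15 UMIs) in WT. The 5 BEST4 markers likewise summed to 0 CPM in nod2-/- and 200 CPM in WT acinar cells, and their part was not tested. Enteroendocrine cells had 2.48 CPM (1 UMI) of chia.4 in nod2-/- and 9.58 CPM (5 UMIs) in WT. With so few UMIs in all, a class with 0 chia.4 UMIs may still hold a low level. A chia.4 UMI was found in 17.9% (13.9 to 22.4) of nod2-/- and 40.6% (35.8 to 45.5) of WT BEST4 cells. At 1000 UMIs per cell the shares were 9.63% (6.39 to 13.8) of 270 nod2-/- cells and 23.4% (19.1 to 28.1) of 363 WT cells.

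The ratio of chia.4 in BEST4 cells was -1.59 (-1.94 to -1.26), or 0.331 of the WT level. It was 1 of 5 members with at least 20 CPM in these cells and the only one called, beside 5.58% of 5054 genes that were lower and 1.84% that were higher by at least 2-fold in nod2-/- BEST4 cells. It lay below 98.5% of those genes, whose median was -0.17. In the larger BEST4 cluster chia.4 had 145 CPM (77 UMIs) in nod2-/- and 390 CPM (346 UMIs) in WT, and in the smaller one 21.4 CPM (13 UMIs) and 94.7 CPM (88 UMIs). The ratios were -1.42 and -2.15, so both clusters gave the same direction, beside 5.97% and 15.7% of genes that were lower by at least 2-fold in them. The summed level of the 5 BEST4 markers was 2871 CPM in nod2-/- and 2750 CPM in WT over both clusters. It was 5027 and 4443 CPM in the larger cluster, but only 988 and 1135 CPM in the smaller one. The smaller cluster held far more of the summed enterocyte markers, 76349 CPM in nod2-/- and 46145 CPM in WT. Of the BEST4 markers, tacr2, a tachykinin receptor, had 62.3 CPM in nod2-/- and 120 CPM in WT in the larger cluster. There otop2, a proton channel, had 1918 and 2167 CPM, and cftr had 2752 and 1874 CPM. No single cell carried the difference: the highest cell held 4 chia.4 UMIs in nod2-/- and 9 in WT.

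Across 19 profiles of named class by library, the genes whose level was most like chia.4, among 11275, were ptger4c (r = 0.98), kcnmb2 (0.97), tacr2 (0.97), tacr3a (0.97) and bicdl2l (0.96). They include a prostaglandin receptor, a subunit of a potassium channel and a pair of tachykinin receptors. The like rank for chia.3 began with rbp2a (0.99), cdo1 (0.99), wu:fa56d06 (0.99), fabp2 (0.99) and cd36 (0.99). For chia.1 it was slc34a2a (0.98), rbp2a (0.98), chia.3 (0.98), wu:fa56d06 (0.98) and apoa4b.2 (0.97), and for chia.2 it was apoc2 (0.98), faxdc2 (0.98), cdo1 (0.98), fabp2 (0.98) and wu:fa56d06 (0.97). Most profiles hold little chia.4, so its values follow the BEST4 cells. The first run was present in every profile, with chia.3 ranging from 709 CPM in WT leukocytes to 15481 CPM in nod2-/- enterocytes. The profiles are of named classes and leave out unnamed clusters.

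ENSDARG00000116259 was found in BEST4 cells and elsewhere. It had 55.4 CPM (63 UMIs) in nod2-/- BEST4 cells and 96.9 CPM (176 UMIs) in WT BEST4 cells, with a UMI in 14.3% and 25.8% of cells. The ratio was -0.81 (-1.25 to -0.38), under the 2-fold mark. By cluster it was -0.70 in the larger one and -1.01 (-2.03 to -0.08) in the smaller one, where 13 UMIs in nod2-/- and 40 in WT just passed 2-fold, beside the 15.7% of genes lower there. Inside the methods' limits on cells it was -0.16. At 1000 UMIs per cell the shares were 7.78% (4.88 to 11.6) in nod2-/- and 10.5% (7.52 to 14.1) in WT, whose intervals overlap.

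The 2 genes were partly found in the same BEST4 cells. In nod2-/- 21.7% of the cells with chia.4 also held ENSDARG00000116259, beside 12.7% of the cells without chia.4. In WT the shares were 45.2% and 12.6%. The correlation across BEST4 cells was 0.06 in nod2-/- (336 cells) and 0.33 in WT (414 cells), and cells with chia.4 were deeper (median 2388 UMIs in nod2-/- and 3049 in WT) than those without (1743 and 2402). At least 1 of these genes was detected in 28.3% of nod2-/- and 48.1% of WT BEST4 cells.

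**Figure D5:**
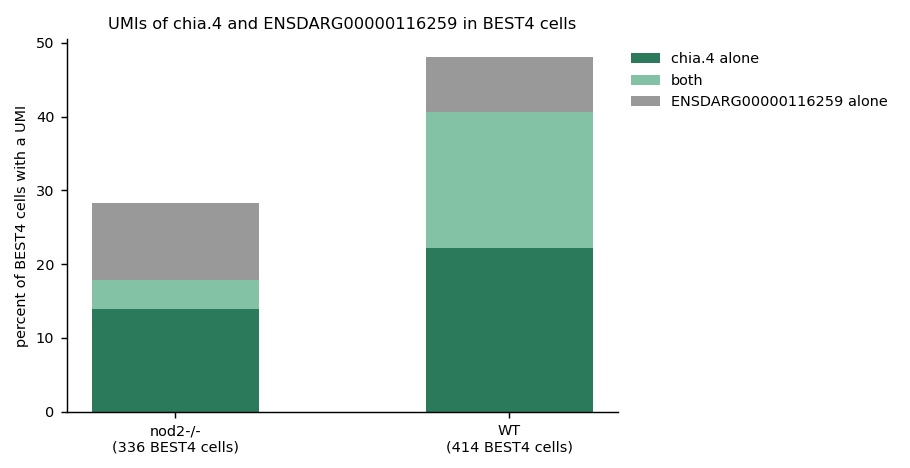
Percent of BEST4 cells with a UMI of chia.4 alone, of both chia.4 and ENSDARG00000116259, or of ENSDARG00000116259 alone, in the nod2-/- library (336 cells) and the WT library (414 cells). The stacks reach 28.3% in nod2-/- and 48.1% in WT.

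The highest level of ENSDARG00000116259 and of chia.6 was in a small cluster led by si:ch73-343g19.4, thy1 and spink4. It held 16 nod2-/- and 24 WT cells and raised 4 of 7 leukocyte markers (coro1a, lcp1, laptm5 and rac2) with ptprc at 0 in both libraries. The epithelial genes cdh1, epcam, cldn15la and cdh17 were all present. They summed to 1118 CPM in nod2-/- and 1461 CPM in WT, beside 855 and 1234 CPM for the leukocyte markers. In the apoa4a enterocyte cluster the same epithelial sum was 870 and 1121 CPM. The cluster was left without a cell type. ENSDARG00000116259 had 789 CPM (60 UMIs) in 9 of 16 nod2-/- cells and 1811 CPM (311 UMIs) in 23 of 24 WT cells. For chia.6 it was 289 CPM (22 UMIs) in 6 of 16 nod2-/- cells and 326 CPM (56 UMIs) in 19 of 24 WT cells. Every cell of the cluster with chia.6 held ENSDARG00000116259 too, 6 in nod2-/- and 19 in WT.

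These few cells carried 37.3% of all chia.6 UMIs in the nod2-/- library and 62.2% in WT, and 19.4% and 46.3% of all ENSDARG00000116259 UMIs. The ratio of ENSDARG00000116259 there was -1.20 (-1.62 to -0.80), and that of chia.6 was -0.17 (-0.96 to 0.56). In that cluster 20.8% of genes were lower by at least 2-fold and 32.4% were higher. The nod2-/- cells of the cluster were also far shallower, at a median of 1836 UMIs against 7804 in WT, and 3 cells held 38 of the 60 nod2-/- UMIs and 129 of the 311 WT UMIs. One nod2-/- cell held 826 of the 877 first-run UMIs, where the 24 WT cells had 139 in all.

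ENSDARG00000116259 was also seen in cycling cells, which carry mki67 and pcna, with 65.0 CPM (32 UMIs) in nod2-/- and 27.8 CPM (19 UMIs) in WT, a ratio of 1.23 (0.36 to 2.13), where 7.77% of genes were higher by at least 2-fold. In enterocytes it had 8.56 CPM (104 UMIs) and 4.75 CPM (87 UMIs), highest in the slc6a19b cluster at 24.5 and 13.8 CPM, where chia.2 was also highest. Enterocytes held 33.7% of its UMIs in the nod2-/- library and 13.0% in WT, beside 20.4% and 26.2% in BEST4 cells. Among granulocytes, which carry mpx and lyz, chia.6 had 5 UMIs in 4 of 15 nod2-/- cells and 1 UMI in 1 of 3 WT cells. The 19 profiles do not include the thy1 cluster, where this gene and chia.6 were highest. Most alike to ENSDARG00000116259 over them were ca4b (0.86), zgc:158258 (0.85), kita (0.83), hacd3 (0.83) and ENSDARG00000108649 (0.82), with chia.4 in place 55 (0.71). For chia.6 the list was hmgb3a (0.76), foxa (0.75), ENSDARG00000105118 (0.75), snrpd2 (0.74) and dnase1l4.1 (0.73). Its level in these profiles was at most 5.60 CPM (5 UMIs) in nod2-/- and 6.96 CPM (11 UMIs) in WT, both in progenitors. That is close to the 5 CPM added before the correlation, so this list rests on few UMIs.

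Genes that make chitin, handle its sugar unit, or belong to the response to chitin and to type 2 cytokines were read from 4 lists of 31 genes, of which 23 were in the files, 8 of them in the response list. In enterocytes 9 of them reached 20 CPM in a library, 0 were higher and 1 was lower in nod2-/- by at least 2-fold, beside 1.95% and 3.62% of all genes. The median ratio of the 9 was -0.15, and that of all genes was -0.17. Over the whole epithelium 10 reached the level, again 0 were higher and 1 was lower, beside 1.63% and 2.01% of genes, with a median of -0.20 against -0.09.

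The chitin synthase gene chs1 was the most abundant of the lists and was near equal, at 368 CPM in nod2-/- and 364 CPM in WT enterocytes (ratio 0.01). The gene past the fold was gfpt2, which starts the synthesis of amino sugars, with 128 CPM in nod2-/- and 276 CPM in WT enterocytes, a ratio of -1.11 (-1.19 to -1.03). Scaled by trimmed means it no longer reached 2-fold. The next steps of the same synthesis had smaller ratios, -0.44 for gnpnat1 and -0.54 for uap1. Of the breakdown enzymes, hexb was at 0.12, amdhd2 at -0.14, gnpda1 at -0.15 and nagk, the kinase that reuses the free sugar, at -0.64.

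Under 20 CPM, fibcd1, which in humans encodes a cell surface receptor for chitin, had 4 UMIs in nod2-/- enterocytes and 121 UMIs in WT enterocytes, a ratio of -4.33 (-6.23 to -2.93). Lysosome-rich enterocytes had 0 and 28 UMIs, and BEST4 cells had 0 and 7. Cells of the stroma had 0 and 14 UMIs of it. Over the whole epithelium fibcd1 had 5 UMIs in nod2-/- and 171 in WT, so its low count was not particular to nod2-/- enterocytes. The share of all genes at such low levels that differ by as much is not given here. The type 2 cytokine gene il13 had 32 UMIs in nod2-/- leukocytes and 29 UMIs in WT leukocytes, and stat6, which carries its signal, had 20.2 and 21.5 CPM in enterocytes (ratio -0.09). The receptor gene il13ra1 had 104 UMIs in nod2-/- and 277 UMIs in WT enterocytes (ratio -0.82).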

How the data were processed

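Dissociated intestinal cells were barcoded with the 10x Genomics Chromium 3' kit, and the authors deposited UMI counts per gene and cell, made with Cell Ranger 7.0.1 against GRCz11 (per the labels' processing notes) and not normalized. All 11490 cells were used: 2430 nod2-/- and 3424 WT cells exceed 2500 UMIs and 315 and 447 exceed 25% mitochondrial UMIs, so the limits worded in the methods had not been applied to these files and were run as an alternative.

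Both libraries were integrated and clustered with Seurat 5.3.0 in R 4.3.3 (canonical correlation, 1992 variable genes after 30 chitin and amino sugar genes were kept out, 50 principal components, resolution 0.8), and leukocytes were clustered again into 12 sub-clusters. A marker counted at 2 times the median cluster with 10 CPM added to both and detection in at least 5% of cells, and a name needed 3 markers. This scoring was written after cluster contents had been seen. Scrublet (scanpy 1.11.5) called 0 doublets and so has not worked; in an alternative, cells above the 95th percentile of its score were removed (240 nod2-/-, 245 WT).

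Class sums, exact Poisson, Clopper-Pearson and conditional binomial intervals were computed in Python 3.11.15 with numpy 2.4.6, pandas 2.3.3 and scipy 1.17.1, figures with matplotlib 3.10.9, and TMM factors with edgeR 4.0.16. The arithmetic was checked on simulated data. A gene was called with at least 20 CPM in a library and a difference of at least 2-fold. Thinning drew 1000 or 500 UMIs per cell. The genes named are the members, the listed genes present, and the 5 most alike to each member by correlation of log2(CPM + 5) over profiles of at least 20 cells or, within enterocytes, across cells. One result of this rule is not reported here. Members, lists and tests were chosen with earlier results of these data known. Gene order comes from the annotation of another assembly, so no coordinates are given, and sequences of the members were not used here.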

Additional observations from a re-analysis of the deposited data

Results flagged for a closer look

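For 5 pairs of groups the same gene had log2 ratios of nod2-/- to WT with opposite signs and counting intervals clear of 0, and the difference between the groups was not tested. Each pair holds the highest and the lowest such ratio among named classes or among enterocyte clusters with at least 100 UMIs of the gene and over 2 times its leukocyte CPM in both libraries. In BEST4 cells and in enteroendocrine cells, the ratio was 0.47 and -0.14 for chia.1, 0.82 and -0.53 for chia.2, and 0.74 and -0.35 for chia.3. The summed enterocyte markers went the same way, with 50360 CPM in nod2-/- and 29226 CPM in WT BEST4 cells (0.79), and 27605 CPM in nod2-/- and 29546 CPM in WT enteroendocrine cells (-0.10). Their part in these ratios was not tested.

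Within enterocytes, chia.1 had a ratio of 0.29 in the slc6a19b cluster and -0.10 in the scarb1 cluster, and chia.3 had 0.36 in the apoa4a cluster and -0.11 in the plac8.1 cluster. The lower ratio of chia.3 in the slc6a19b cluster (-0.48) was left out by that minimum, since its nod2-/- level was under 2 times that of leukocytes. The median gene stood at -0.14 in the slc6a19b cluster, 0.09 in the scarb1 cluster, -0.19 in the apoa4a cluster and 0.10 in the plac8.1 cluster.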

How the results depend on the processing

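No paired analysis was possible because each genotype has 1 library, and for the same reason none could be left out. Over 22 values and 129 alternatives, 66 stayed within a set limit, 62 moved beyond it and 1 turned round. The limit was the counting interval for ratios, levels and shares, an interval over cells for correlations, and a set fold for counts of genes. In enterocytes the log2 ratios were 0.039 for chia.1 and -0.48 for chia.3 within the methods' limits on cells. With TMM factors chia.1, chia.2 and chia.3 were at 0.31, 0.55 and 0.33, with at most 25% mitochondrial UMIs at 0.10, 0.34 and 0.11, thinned to 1000 UMIs at 0.21, 0.46 and 0.17, and with equal weight of the clusters (chosen after seeing the data) at 0.19, 0.31 and 0.12. As means over cells chia.1 and chia.3 were at 0.081 and 0.029, and with 30 principal components chia.2 and chia.3 were at 0.39 and 0.17. The ratio of chia.4 in BEST4 cells kept its sign at -1.74 to -1.36 over 12 alternatives, and that of ENSDARG00000116259 reached -0.16 within the methods' limits. A minimum of 5 CPM gave 1206 genes lower by at least 2-fold in BEST4 cells (12.0% of 10083) in place of 282.

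Levels of chia.3 in enterocytes were 13524 CPM in nod2-/- and 13255 CPM in WT as means over cells, 12087 and 16917 CPM within the methods' limits, 15777 and 14607 CPM with the mitochondrial limit, 15659 and 14066 CPM without high doublet scores, and 13760 CPM in WT with 30 components. Those of chia.4 in BEST4 cells were 117 and 350 CPM as means over cells, 141 and 403 CPM within the methods' limits, 149 and 383 CPM with 30 components, and 281 CPM in WT without high doublet scores. A chia.3 UMI was in 91.3% of nod2-/- and 95.4% of WT enterocytes within the methods' limits, in 88.6% and 91.3% at 1000 UMIs and in 82.7% and 87.5% at 500 UMIs. The correlation of chia.1 and chia.3 was 0.46 in nod2-/- and 0.42 in WT within the methods' limits, 0.74 and 0.68 at 1000 UMIs, and 0.67 and 0.61 by Spearman. The chia.2 share in the slc6a19b cluster was 61.3% in nod2-/- and 45.0% in WT at resolution 0.4, and 72.9% and 63.2% at 1.2.

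When the thy1 cells were taken from the leukocyte clustering (13 and 23 cells), ENSDARG00000116259 had 1090 CPM in nod2-/- and 1867 CPM in WT. It had 570 and 1341 CPM without the 3 cells of most UMIs (chosen after seeing the data) and 779 CPM in nod2-/- without high doublet scores. Of the listed chitin and amino sugar genes, 0 were lower by 2-fold with TMM factors in enterocytes and in the epithelium. With a minimum of 5 CPM 3 and 2 were lower, and with none 4 and 2 were lower and 2 and 1 were higher. The higher ones were il4 and il13ra2 in enterocytes and il4 in the epithelium, each with 1 UMI in nod2-/- and 0 in WT. The lower ones in enterocytes include il13, with 0 UMIs in nod2-/- and 2 in WT. Shares over all genes at these minimums are not given here, so the counts have no scale. The cause of these shifts was not tested. Genes under about 20 CPM rest on few UMIs, and no interval covers variation between fish.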
